A study of Rattus norvegicus with 16 samples.

Results

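The nuclear genes of the mitochondrial respiratory chain were followed across hippocampus and cortex of aged rats given curcumin or control chow for 12 or 6 weeks. Members were the rows of the expression table with exactly 1 annotated gene symbol that starts with Ndufa, Ndufb, Ndufc, Ndufs, Ndufv, Uqcr or Atp5, or with Cox4, Cox5, Cox6, Cox7 or Cox8, or that is Sdha, Sdhb, Sdhc or Sdhd. The rule took 91 of 27342 rows. With the row of the highest mean kept for each gene, 80 genes remained of the 14324 genes with exactly 1 symbol. Of these, 73 encode structural subunits, 32 of complex I, 4 of complex II, 7 of complex III, 15 of complex IV and 15 of complex V. The other 7 are not subunits, namely the complex I assembly factors Ndufaf1, Ndufaf3 and Ndufaf4, the genes named as pseudogenes Ndufs6-ps1 and Cox6c-ps1, the supercomplex factor Cox7a2l, and Atp5if1, an inhibitor of the ATP synthase. On these arrays 68 of the 80 genes lay among the 6836 brightest rows and 3 in the dimmest 30 percent. Subunits encoded by mitochondrial DNA were not analysed here.

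The respiratory chain lies in the inner mitochondrial membrane, where complex I takes electrons from NADH and complex II from succinate. Complex III passes the electrons from ubiquinol to cytochrome c, complex IV passes them on to oxygen, and complex V uses the proton gradient built on the way to make ATP. In the brain this is the main source of the ATP spent on ion pumping and synaptic transmission, and most of the subunits are encoded in the nucleus.

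The series holds 16 arrays of male Sprague-Dawley rats that were 15 months old, 2 arrays for each of 8 groups. The groups were hippocampus on curcumin chow for 12 weeks, hippocampus on curcumin chow for 6 weeks, hippocampus on control chow for 12 weeks, hippocampus on control chow for 6 weeks, and the same 4 groups of cortex. Each array measured RNA pooled from 3 rats, and hippocampal and cortical pools may come from the same animals. The labels call the 2 arrays of a group biological replicates whereas the design text speaks of duplicate arrays of each RNA sample, so the p-values measure only the spread between these arrays, which may be technical. A longer course of chow also means an older age at death and possibly another processing day, and these cannot be told apart. Every value below is a deposited log2 value or a difference of such values. A member was called where limma, fitted to all 27342 rows, gave a Benjamini-Hochberg adjusted p under 0.05.

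Array medians over all rows lay between 6.35 and 6.44. Dentate granule cell markers (Prox1, C1ql2) fitted the labels, with summed deviations of 1.16 to 2.41 on the 8 hippocampal arrays and of -2.41 to -0.89 on the 8 cortical arrays. Markers of neighbouring tissue stood out on 3 arrays, all of them at 6 weeks and called the 3 arrays apart below. The median of 4 choroid plexus markers stood 1.53 above its mean on hippocampus curcumin 6 weeks replicate 2 and 2.16 above on hippocampus control 6 weeks replicate 2. The median of 3 olfactory bulb markers stood 1.92 above on cortex control 6 weeks replicate 2. Counts are therefore given with and without these 3 arrays, an alternative chosen after seeing the data, in which each of their groups keeps 1 array that is assumed to vary like the others.

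Promoter sequences are shown first because motifs that the rule did not use were more frequent in promoters of members than in all promoters. RefSeq windows of 300 bases, 250 before and 50 after the annotated start site (build GRCr8), were at hand for 70 of the 80 members and 18999 protein-coding genes. In 23 of the 70 the start site of the window was not the outer end of the annotated gene, and no window of these is printed. The motif of NRF1, a regulator of nuclear respiratory genes (GCGCA, any base, then GCGC, both strands), was in 20.0% of member windows. It was in 6.0% of all windows and in 7.3% of the windows of protein-coding genes with a row on the array. The ETS motif read by the GABP family (CCGGAAG, both strands) was in 21 of the 70 member windows. It was in 11.2% of all and in 12.9% of those with a row on the array. The YY1 motif (AAGATGGCG, both strands) was in 11.4% of member windows, in 2.3% of all and in 2.7% of those with a row on the array. By complex, NRF1 letters were in 6 of 30 windows of complex I, 1 of 4 of complex II, 1 of 5 of complex III, 0 of 12 of complex IV and 5 of 14 of complex V. A match is a description of letters and not a site, and a window without a match says only that these letters are not in it.

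The stretches below belong to members that the results turn on, with motif letters in capitals and each written in the direction of the gene. Cox8a, Ndufa11 and Ndufb2 were among the members that differed most between 12 and 6 weeks, Ndufa5 differed most between the tissues, and Ndufs1 and Atp5f1a differed between curcumin and control cortex. Cox8a holds the ETS letters at 2 places, Ndufa11 the NRF1 letters at 2 overlapping places, Ndufa5 the NRF1 letters once, and Ndufs1 and Atp5f1a the ETS letters once. Ndufb2 has none of the 3 motifs in its window.
Cox8a, chr1:213833624-213833700, minus strand: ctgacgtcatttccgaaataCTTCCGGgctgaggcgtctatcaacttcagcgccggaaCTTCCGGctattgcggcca
Ndufa11, chr9:1637497-1637552, plus strand: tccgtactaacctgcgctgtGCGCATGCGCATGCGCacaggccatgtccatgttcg
Ndufb2, chr4:69334057-69334306, plus strand: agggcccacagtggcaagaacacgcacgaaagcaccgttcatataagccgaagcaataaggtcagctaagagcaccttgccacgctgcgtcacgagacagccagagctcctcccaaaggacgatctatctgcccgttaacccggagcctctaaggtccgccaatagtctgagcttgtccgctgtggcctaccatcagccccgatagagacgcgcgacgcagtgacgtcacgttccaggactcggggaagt
Ndufa5, chr4:53971238-53971287, minus strand: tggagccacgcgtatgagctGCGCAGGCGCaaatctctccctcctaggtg
Ndufs1, chr9:72073778-72073824, minus strand: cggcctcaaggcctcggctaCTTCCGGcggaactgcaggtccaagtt
Atp5f1a, chr18:73567457-73567503, plus strand: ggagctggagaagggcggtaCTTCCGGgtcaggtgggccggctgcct

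The clearest difference among the members was between 12 and 6 weeks, and it appeared on both diets and in both tissues. The median deviation of the 73 subunits from their own means was 0.034 to 0.180 on the 8 arrays at 12 weeks, against -0.190 to 0.010 on the 8 arrays at 6 weeks. The groups did not overlap, and the 6-week array nearest to the others was cortex curcumin 6 weeks replicate 2, at 0.010. For complex I alone the medians were 0.041 to 0.202 at 12 weeks and -0.237 to 0.006 at 6 weeks. The medians of complex II and complex IV overlapped between the durations, with -0.078 to 0.122 at 12 weeks and -0.160 to 0.005 at 6 weeks for complex II, and with -0.025 to 0.114 at 12 weeks and -0.192 to 0.035 at 6 weeks for complex IV. In RNA of whole tissue, fewer cells of a type and less RNA per cell cannot be told apart.

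**Figure D1:**
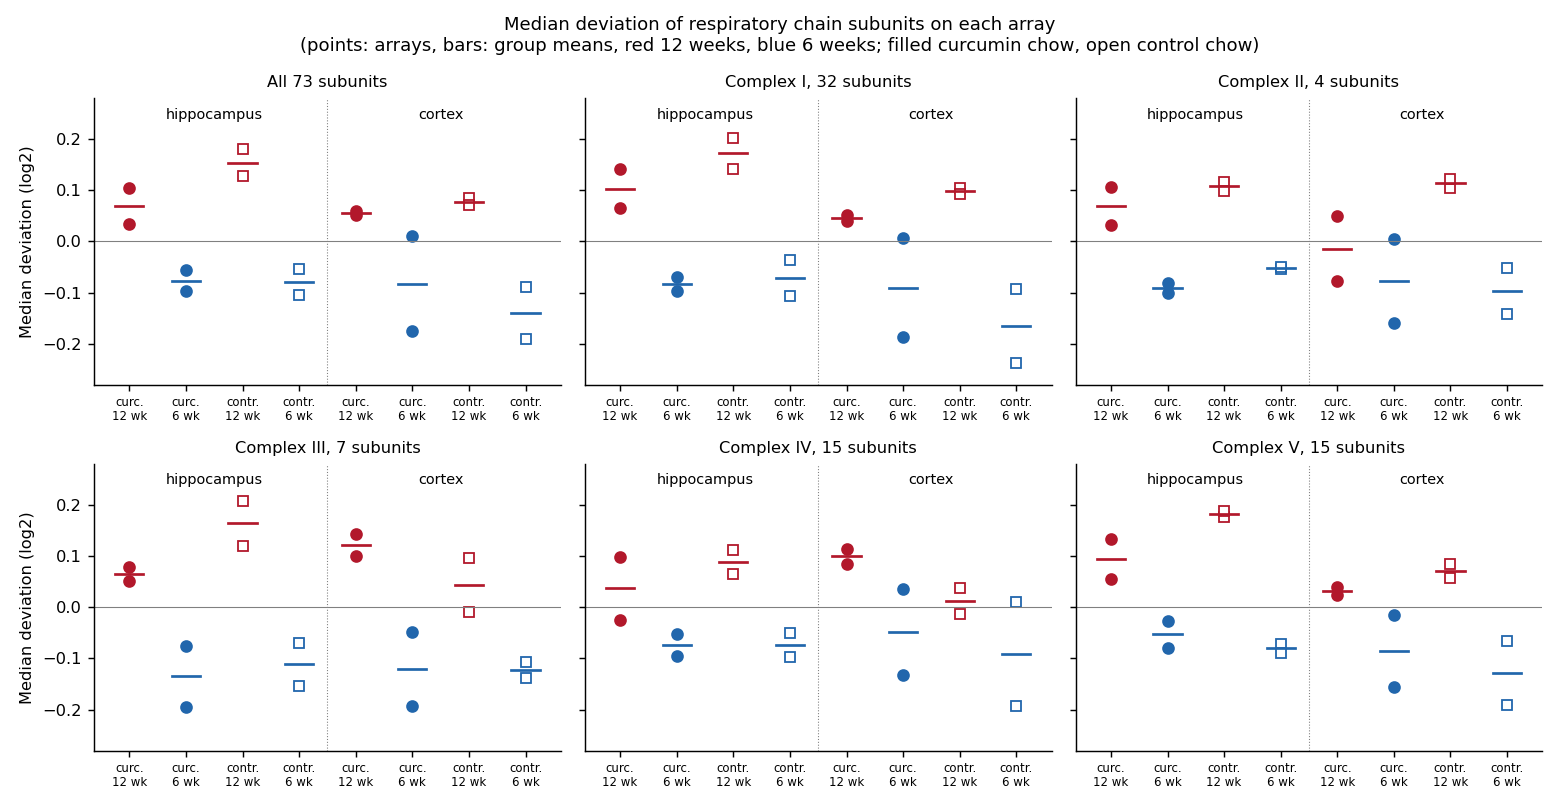
Median log2 deviation of the structural subunits from their own means over the 16 arrays (y axis), for all 73 and for each complex, in the 8 groups (x axis; points are arrays, bars are means of 2 arrays). The 12-week arrays of all 73 subunits lie between 0.034 and 0.180 and the 6-week arrays between -0.190 and 0.010.

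Over both tissues and diets together, a contrast chosen after seeing the data, 41 of the 80 members were called higher at 12 weeks than at 6 weeks and 3 were called lower. Of all rows, 10.9% were called higher and 8.97% lower, and of the 6836 brightest rows, to which most members belong, 21.4% were called higher. The median difference of the members was 0.170, and that of all rows was 0.0. Every call was of a subunit, with 19 higher and 2 lower in complex I, 3 higher in complex II, 5 higher in complex III, 5 higher in complex IV, and 9 higher and 1 lower in complex V. On 23 members all 8 arrays at 12 weeks read above all 8 at 6 weeks, against 2.44% of all rows, and on 1, Ndufc2, all 8 read below, against 1.11% of all rows. Without the 3 arrays apart, 29 members were called higher and 3 lower, all of them among the calls with 16 arrays, against 1491 of the 27342 rows called higher and 1147 lower, and the median difference was 0.169. Without any 1 array the number of called members was 40 to 49.

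Among complex I subunits, Ndufb2, an accessory subunit of the membrane arm, had the smallest adjusted p. It read 9.76 and 9.85 on the hippocampal curcumin arrays at 12 weeks, against 9.23 and 9.27 at 6 weeks, and 9.90 and 9.86 on the hippocampal control arrays at 12 weeks, against 9.11 and 9.28 at 6 weeks. In cortex it read 9.82 and 9.81 on curcumin chow at 12 weeks, against 9.23 and 9.38 at 6 weeks, and 9.82 and 9.80 on control chow at 12 weeks, against 9.27 and 9.13 at 6 weeks. All arrays at 12 weeks lay above all arrays at 6 weeks, and the difference was 0.59 (SE 0.039, a 1.503-fold level, limma adjusted p = 8.36e-06). The contrasts within each tissue and diet gave 0.55 and 0.68 in hippocampus on curcumin and control chow, and 0.51 and 0.61 in cortex, and all of them were called.

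Ndufa3, another accessory subunit, had the largest difference of all members and also the largest spread over the 16 arrays (SD 0.471). It read 8.31 to 8.66 on the 8 arrays at 12 weeks (median 8.55), against 7.32 to 7.90 on the 8 at 6 weeks (median 7.75), with no overlap. The difference was 0.86 (SE 0.085, 1.81-fold, limma adjusted p = 7.92e-05). Ndufb6, a membrane arm subunit, read 8.19 to 8.89 at 12 weeks (median 8.64), against 7.53 to 8.002 at 6 weeks (median 7.81), a difference of 0.78 (SE 0.064, limma adjusted p = 2.69e-05). Its value on the cortical curcumin arrays at 12 weeks, 8.25 and 8.19, was the lowest of the 12-week groups. Ndufa11, an accessory subunit of the membrane arm, read 7.85 to 8.27 at 12 weeks and 7.21 to 7.61 at 6 weeks, a difference of 0.63 (SE 0.068, limma adjusted p = 0.000133).

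Ndufb8 and Ndufs4, also accessory, differed by 0.40 and 0.31 and were called higher with no overlap. Of the core subunits, Ndufs7 and Ndufs8, which carry iron-sulphur clusters, differed by 0.40 and 0.29, and Ndufv1, the subunit that binds FMN and NADH, by 0.27, all of them called higher at 12 weeks. Ndufs1, the largest core subunit, differed by 0.07 (adjusted p = 0.194) and Ndufs3 by 0.17 (adjusted p = 0.0741), and neither was called. The value of Ndufs1 joined unlike signs. It was 0.11 and 0.18 in hippocampus on curcumin and control chow, and -0.22 in cortex on curcumin chow. In cortex on control chow the means of Ndufs1 were 10.02 at 12 weeks and 9.80 at 6 weeks. Of the 2 subunits called lower, Ndufc2 read 9.60 to 9.87 at 12 weeks, against 9.88 to 9.98 at 6 weeks, a difference of -0.215 (SE 0.031, adjusted p = 0.000742), with no overlap. The other, Ndufb5, read 9.93 to 10.15 at 12 weeks, against 10.12 to 10.31 at 6 weeks, a difference of -0.17 (SE 0.037, adjusted p = 0.00728), and its groups overlapped.

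In complex II, succinate dehydrogenase, the subunits did not move as one. Sdha, which holds the flavin and the succinate site, differed by 0.21 between 12 and 6 weeks (adjusted p = 0.00158), and Sdhb, the iron-sulphur subunit, by 0.22 (adjusted p = 0.000982). Sdha was uneven, with 0.22 and 0.25 in hippocampus on curcumin and control chow, and 0.003 in cortex on curcumin chow. In cortex on control chow the means of Sdha were 10.04 at 12 weeks and 9.69 at 6 weeks. Of the membrane anchors, Sdhd differed by 0.17 (adjusted p = 0.0169) and was called higher, while Sdhc differed by -0.095 (SE 0.057, adjusted p = 0.296) and was not called. Sdhb read 9.03 to 9.19 at 12 weeks and 8.82 to 9.03 at 6 weeks, with no overlap between the durations, and the arrays of Sdha overlapped.

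In complex III, Uqcr11, a small subunit, read 10.27 to 10.41 at 12 weeks (median 10.34), against 9.44 to 9.90 at 6 weeks (median 9.82). The difference was 0.57 (SE 0.054, 1.49-fold, limma adjusted p = 6.09e-05) and the durations did not overlap. Uqcrq differed by 0.41, Uqcrh by 0.28 and Uqcrfs1, the Rieske iron-sulphur protein, by 0.28, all called higher at 12 weeks. The difference of Uqcrfs1 was uneven, with 0.71 in cortex and 0.05 in hippocampus on curcumin chow, and 0.25 in hippocampus on control chow. In cortex on control chow its means were 7.86 at 12 weeks and 7.73 at 6 weeks. The 2 core proteins gave unlike values, with 0.13 for Uqcrc1 (adjusted p = 0.0331) and -0.01 for Uqcrc2 (adjusted p = 0.853), and Uqcrb was at -0.01 (adjusted p = 0.93). Uqcrc2 gave -0.12 and 0.13 in hippocampus on curcumin and control chow, and -0.25 in cortex on curcumin chow. In cortex on control chow the means of Uqcrc2 were 9.92 at 12 weeks and 9.73 at 6 weeks.

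In complex IV, cytochrome c oxidase, the 5 calls were of Cox4i1, Cox5a, Cox6a1, Cox7b and Cox8a, and 0 of the isoforms known from muscle, lung or testis were called. Cox8a read 10.45 to 10.72 at 12 weeks (median 10.60), against 9.80 to 10.05 at 6 weeks (median 9.93), a difference of 0.67 (SE 0.045, 1.59-fold, limma adjusted p = 9.79e-06). All 12-week arrays lay above all 6-week arrays. Cox5a, a subunit on the matrix side, read 10.02 to 10.20 at 12 weeks, against 9.49 to 9.76 at 6 weeks, a difference of 0.45 (SE 0.042, limma adjusted p = 5.63e-05), again with no overlap.

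Its other isoforms gave smaller differences between 12 and 6 weeks. Cox8b, known from muscle, and Cox8c, known from testis, differed by 0.02 (adjusted p = 0.849) and -0.07 (adjusted p = 0.214), and both were in the dimmest 30 percent of rows. Cox4i1 differed by 0.295 (adjusted p = 0.000532) and its lung isoform Cox4i2 by -0.09 (adjusted p = 0.245), and Cox6a1 differed by 0.33 (adjusted p = 0.000777) and its muscle isoform Cox6a2 by 0.05 (adjusted p = 0.693). Cox4i2 read between 5.32 and 5.65 on the 16 arrays, and whether a change could be seen in rows this dim was not tested. Cox7b differed by 0.44 (SE 0.0945, adjusted p = 0.00704), whereas Cox7a2 differed by 0.02, Cox6b2 by -0.06, Cox6c by -0.03 and Ndufa4, a subunit of complex IV despite its name, by -0.04, and none of these was called. The supercomplex factor Cox7a2l was at 0.09 (adjusted p = 0.369).

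In complex V, the ATP synthase, 9 members were called higher at 12 weeks, and the genes for the rotating ring of subunit c split. Their proteins are the same once the import signal is cut off. Atp5mc1 differed by 0.39 (SE 0.052, adjusted p = 0.000448) and Atp5mc2 by 0.49 (SE 0.053, adjusted p = 0.000135), while Atp5mc3 differed by -0.23 (SE 0.040, adjusted p = 0.00229). Atp5mc2 read 9.31 to 9.72 at 12 weeks, against 8.97 to 9.19 at 6 weeks, with no overlap. Atp5mc3 read 9.64 to 10.01 at 12 weeks, against 9.96 to 10.16 at 6 weeks, and the groups overlapped at 2 arrays of each duration. Atp5mg, Atp5f1e, Atp5me and Atp5pd were also called higher with no overlap, by 0.51, 0.34, 0.31 and 0.29. Small differences were those of Atp5f1b at 0.07 (adjusted p = 0.193), Atp5f1c at 0.03 (adjusted p = 0.661) and Atp5f1a at -0.01 (adjusted p = 0.912), none of them called. The value of Atp5f1a joined unlike ones, 0.06 and 0.145 in hippocampus on curcumin and control chow, and -0.26 and 0.02 in cortex. Atp5f1d gave 0.37 and 0.30 in hippocampus on curcumin and control chow, and -0.04 in cortex on curcumin chow.

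**Figure D2:**
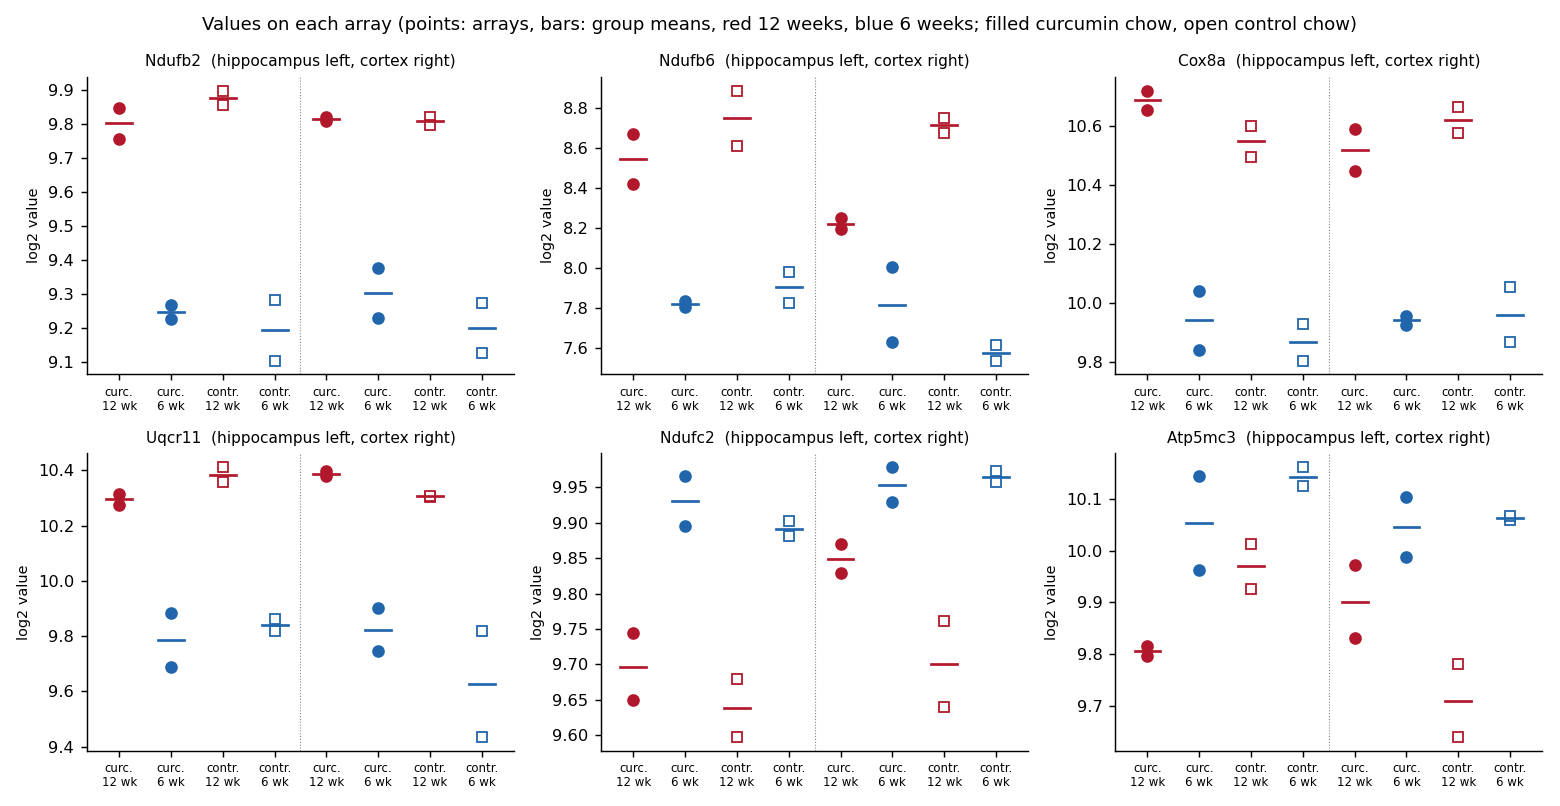
Deposited log2 values (y axis) of Ndufb2, Ndufb6, Cox8a, Uqcr11, Ndufc2 and Atp5mc3 on each array in the 8 groups (x axis; points are arrays, bars are means of 2 arrays). Ndufb2, Ndufb6, Cox8a and Uqcr11 read higher at 12 weeks on all 8 arrays, Ndufc2 read lower on all 8, and Atp5mc3 was lower on average, at -0.23, with overlap.

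Within each tissue and diet the counts were smaller and depended on single arrays. On curcumin chow in hippocampus, 11 members were called higher at 12 weeks and 0 lower, against 1.4% of all rows higher, 0.87% lower and 4.21% of the 6836 brightest rows higher (median difference 0.101). In order of their moderated t they were Cox8a, Ndufb2, Ndufb6, Ndufb8, Atp5mc2, Ndufa11, Ndufab1, Atp5f1e, Uqcr11, Ndufa3 and Ndufs7. The largest moderated t downward, none of them called, were those of Ndufc2 at -0.23 (adjusted p = 0.0833), Atp5mc3 at -0.25 and Atp5if1 at -0.18. Without hippocampus curcumin 6 weeks replicate 1 the count was 0, without replicate 2 it was 1, and without hippocampus curcumin 12 weeks replicate 1 or 2 it was 2 and 1. Without either hippocampus control 6 weeks array, which only lends its spread, it was 6.

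On control chow in hippocampus, 18 members were called higher at 12 weeks and 1 lower, against 2.77% of all rows higher, 1.5% lower and 6.47% of the 6836 brightest rows higher (median difference 0.185). The 15 with the largest moderated t were Ndufb2, Cox8a, Ndufb6, Atp5pd, Cox5a, Atp5mg, Ndufa3, Ndufv1, Atp5mc2, Ndufb8, Uqcr11, Ndufs7, Ndufs8, Ndufs4 and Atp5mc1, from 0.35 to 0.96. Ndufc2 was called lower at -0.255 (adjusted p = 0.046), and Atp5mc3 at -0.17 and Ndufv3 at -0.13 were not called. Without hippocampus control 6 weeks replicate 1 the count of 19 became 1, without replicate 2 it became 6, and without 12 weeks replicates 1 and 2 it became 11 and 3. Ndufb2 alone was called in all 4 of these fits.

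On curcumin chow in cortex, 11 members were called higher at 12 weeks and 1 lower, against 1.7% of all rows higher, 1.55% lower and 4.14% of the 6836 brightest rows higher (median difference 0.096). They were Uqcrfs1 at 0.71, Ndufb2, Cox8a, Cox5a, Uqcr11, Cox4i1, Ndufa11, Ndufa1, Atp5me, Ndufa3 and Ndufb3. Ndufb5 was called lower at -0.32 (adjusted p = 0.0459), and Atp5f1a at -0.26 and Uqcrc2 at -0.25 were not called. Without cortex curcumin 6 weeks replicates 1 and 2 the count of 12 became 5 and 6, and without 12 weeks replicates 1 and 2 it became 4 and 2. Ndufb2 and Uqcrfs1 were called in all 4 fits.

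On control chow in cortex, 23 members were called higher at 12 weeks and 2 lower, against 5.42% of all rows higher, 3.44% lower and 13.7% of the 6836 brightest rows higher (median difference 0.207). The 15 with the largest moderated t were Ndufb6, Ndufb2, Cox8a, Uqcr11, Atp5mg, Ndufa3, Cox5a, Sdha, Ndufs4, Ndufb8, Ndufb4, Atp5f1e, Atp5mc2, Ndufv1 and Ndufs7, from 0.33 to 1.14. Ndufb6 read 8.68 and 8.75 at 12 weeks, against 7.61 and 7.53 at 6 weeks, the largest difference of any member in these contrasts (1.14, limma adjusted p = 0.00119). Atp5mc3 at -0.35 (adjusted p = 0.0213) and Ndufc2 at -0.265 (adjusted p = 0.025) were called lower, and Cox8c at -0.18 was not called. Without cortex control 6 weeks replicate 2 the count of 25 became 4, without 12 weeks replicates 1 and 2 it became 5 and 12, and Cox8a, Ndufb2, Ndufb6 and Uqcr11 were called in each fit that left out 1 of the 4 arrays.

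Markers of cells moved with the cortical contrast on control chow, and their part in the result was not tested. Of 6 neuronal markers, 3 were called higher at 12 weeks, among them Slc17a7 at 0.925, and Gad1 was called lower at -0.686. The summed deviation of the 6 was 0.0 to 0.54 on the cortical arrays at 12 weeks and -0.72 to 0.33 at 6 weeks, and on the hippocampal arrays it was -0.20 to 0.44 at 12 weeks and -0.47 to -0.14 at 6 weeks. The summed deviation of 7 oligodendrocyte markers was -3.76 to 1.01 in cortex at 12 weeks and -6.30 to 4.25 at 6 weeks. Without the 3 arrays apart, 3 members were called in hippocampus on control chow (Cox8a, Ndufa3 and Ndufb2), 0 in cortex on control chow, 0 in hippocampus on curcumin chow and 5 in cortex on curcumin chow (Cox8a, Ndufa3, Ndufb2, Uqcr11 and Uqcrfs1). The counts over all rows fell too, to 27 rows higher and 7 lower in cortex on control chow, to 31 higher and 5 lower in hippocampus on control chow, to 143 higher and 105 lower in cortex on curcumin chow, and to 1 higher and 0 lower in hippocampus on curcumin chow. The medians over the members in these fits were 0.209, 0.145, 0.151 and 0.096 in hippocampus on control chow, cortex on control chow, hippocampus on curcumin chow and cortex on curcumin chow.

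**Figure D3:**
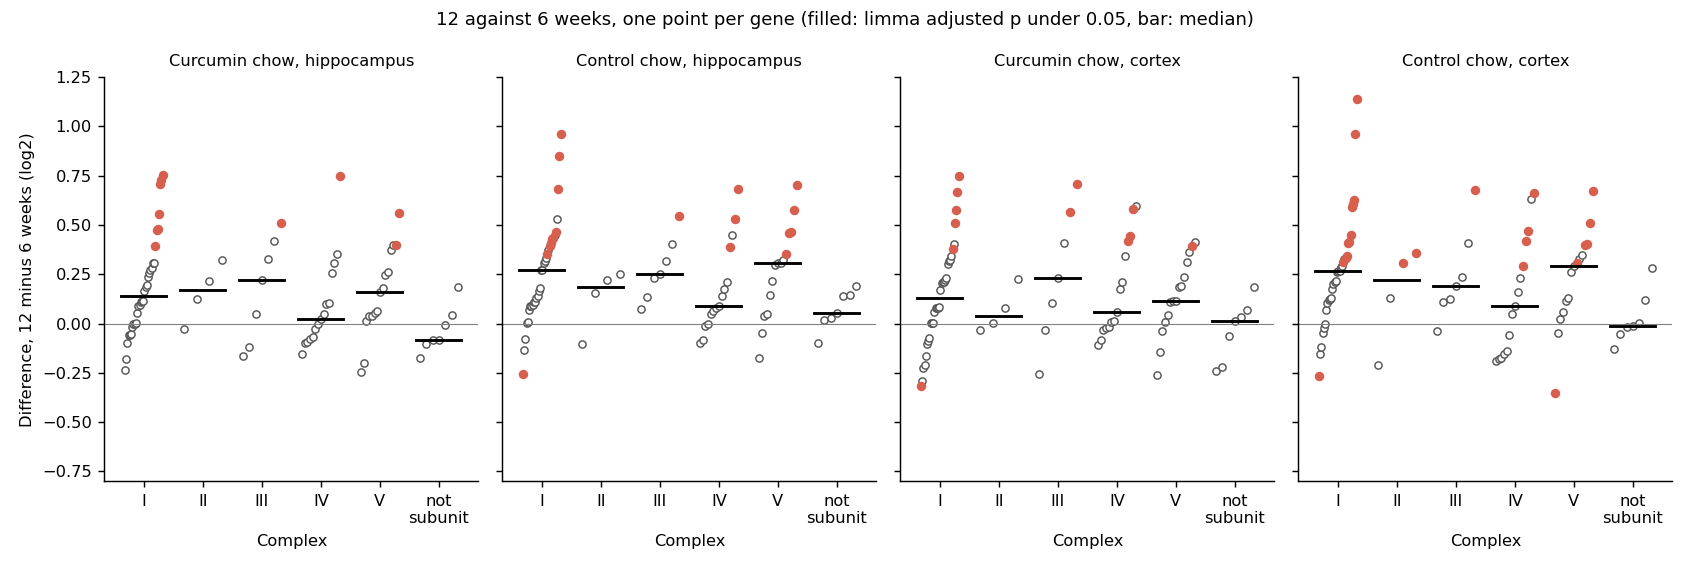
Differences between 12 and 6 weeks (log2, y axis) of the 80 members by complex (x axis), on curcumin and control chow in each tissue (filled points have a limma adjusted p under 0.05, bars are medians). Most points lie above 0 in the panels, with member medians of 0.101, 0.185, 0.096 and 0.207 from left to right.

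Cox8a, Ndufa3, Ndufb2 and Uqcr11 were called higher at 12 weeks in all 4 of these contrasts, and Atp5f1e, Atp5mc2, Cox5a, Ndufa11, Ndufb6, Ndufb8 and Ndufs7 in 3. Of the 6836 brightest rows, 1.07% were called higher in all 4 and 2.46% in 3, and of all rows 0.336% and 0.834%. In 2 contrasts 7 members were called, in 1 contrast 12 were, and 50 members were called higher in none, against 82.5% of the brightest rows and 92.7% of all rows called in none. The difference was positive in all 4 contrasts for 44 members, all of them subunits, and in none for Atp5mc3, Ndufb5, Ndufc2, Ndufv3 and Sdhc. It was positive in all 4 for 20.6% of the brightest rows and 17.1% of all rows, and in none for 21.9% and 15.1%. In each tissue the contrasts on curcumin and control chow share no array, but all contrasts share the spread estimated from all arrays. In hippocampus 9 calls were common, which is 81.8% of the 11 on curcumin chow and 9 of the 18 on control chow. In cortex 7 were common, 63.6% of the 11 on curcumin chow and 30.4% of the 23 on control chow. Between the tissues 16 calls were common on control chow, 88.9% of the hippocampal 18 and 69.6% of the cortical 23, and the pools of the 2 tissues may share rats. Overlaps over all rows are not given here, so these shares do not set the members apart.

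The members varied together over the 16 arrays to unlike degrees. The median Pearson correlation over 2628 pairs of subunits was 0.345, and it was 0.336 after the group means were taken out. Within complexes it was 0.431 in complex I, 0.248 in complex II, 0.298 in complex III, 0.107 in complex IV and 0.541 in complex V. For pairs with subunits of other complexes it was 0.357, 0.376, 0.389, 0.172 and 0.43 in the same order. In complexes II, III and IV the value within the complex was thus the lower one. The arrays share 8 groups, so these are descriptions. Cox6a1, Uqcr11 and Ndufa3 followed the mean of the other subunits most closely (r = 0.967, 0.957 and 0.943), and Ndufc2, Ndufb5 and Atp5mc3 ran against it (r = -0.783, -0.569 and -0.567). The largest SDs over the arrays were those of Ndufa3 (0.471), Ndufb6 (0.452), Cox8a (0.356), Ndufa11 (0.348) and Uqcr11 (0.316). The smallest were those of Atp5f1b (0.055), Atp5f1c (0.065), Ndufa4 (0.074), Ndufb9 (0.075) and Cox6c (0.078). Of the 10 members called higher in 3 or 4 duration contrasts that have a promoter window, 5 held any of the 3 motifs. The share was 54.3% of the 70 member windows, 17.5% of all windows and 20.4% of those of protein-coding genes with a row on the array.

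Where a gene had several rows, the second row mostly gave a like value. Cox5a gave 0.49 and 0.45 in its 2 rows over both tissues and diets, Atp5mc2 0.68 and 0.49, and Ndufb4 0.39 and 0.41, all called. Atp5pd gave 0.29 (adjusted p = 0.000241) in the row used and 0.06 (adjusted p = 0.402) in the other, so its call rests on 1 row. Processed copies of many of these genes lie elsewhere in the genome, and whether their transcripts reach the probes was not tested.

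Diet was the comparison the study was built for, and few members differed by it. In cortex after 12 weeks, 1 member was called higher on curcumin chow and 2 were called lower, against 3.24% of all rows called in either direction. The members were thus called about as often as all rows, and the values below are of single genes. Uqcrfs1, the Rieske protein of complex III, read 8.307 and 8.498 on the curcumin arrays, against 7.88 and 7.84 on the control arrays, a difference of 0.55 (SE 0.079, 1.46-fold, limma adjusted p = 0.00665). Both curcumin arrays lay above every other array of the series, the next highest being a hippocampal control array at 12 weeks with 8.09. Ndufs1, the iron-sulphur core subunit of complex I, read 9.59 and 9.59 on the curcumin arrays, against 10.03 and 10 on the control arrays, a difference of -0.43 (SE 0.068, adjusted p = 0.00917). Atp5f1a, the alpha subunit of the ATP synthase head, read 10.76 and 10.74 on the curcumin arrays, against 11.08 and 11.09 on the control arrays, a difference of -0.33 (SE 0.070, adjusted p = 0.0298). For both genes the curcumin arrays were the lowest of the 16 arrays.

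**Figure D4:**
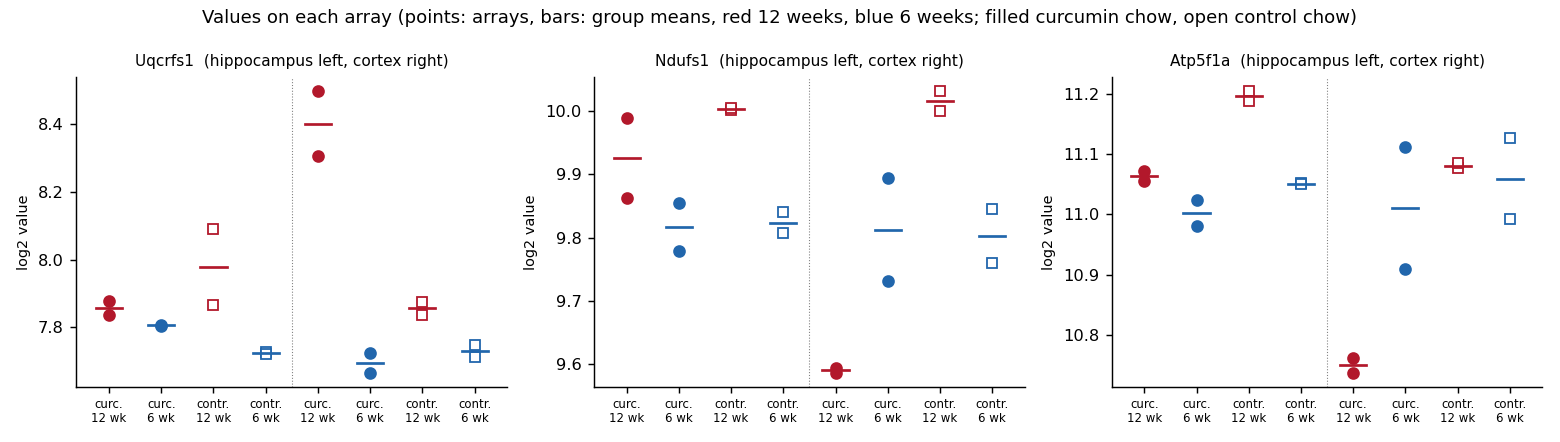
Deposited log2 values (y axis) of Uqcrfs1, Ndufs1 and Atp5f1a on each array in the 8 groups (x axis; points are arrays, bars are means of 2 arrays). On the 2 curcumin arrays of cortex at 12 weeks Uqcrfs1 read 8.307 and 8.498, Ndufs1 9.59 and 9.59, and Atp5f1a 10.76 and 10.74.

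Other members of the same contrast came near the threshold without passing it. Atp5if1 differed by 0.27 (adjusted p = 0.0526), Ndufa1, an accessory subunit of complex I, by 0.48 (adjusted p = 0.0551), and Ndufb6 by -0.49 (adjusted p = 0.0634). The median over the 80 members was 0.003. The calls rested on single arrays. Without cortex control 12 weeks replicate 1 there were 0 calls, without cortex control 12 weeks replicate 2 or cortex curcumin 12 weeks replicate 2 there was 1, and without either cortex curcumin 6 weeks array there were 6. Atp5f1a was also not called without any 1 of the 4 hippocampal arrays of 6 weeks. In a fit of the cortical arrays alone there were 0, with adjusted p = 0.067 for Uqcrfs1. Without the 3 arrays apart, Uqcrfs1 and Ndufs1 were called and Atp5f1a was not. All 5 astrocyte markers and all 7 oligodendrocyte markers with a row were lower on curcumin chow, by medians of -0.23 and -0.159, none of them called, and their part in the result was not tested.

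In the other diet comparisons no member was called by limma. In hippocampus after 6 weeks the count was 0, and 0% of all rows were called. The largest moderated t were those of Uqcrb (0.17), Ndufa4 (0.15) and Atp5pd (0.15) upward and of Cox8c (-0.24), Ndufv3 (-0.135) and Ndufa10 (-0.155) downward, all with an adjusted p of 1.0. In hippocampus after 12 weeks the count was 0, and 0.00366% of all rows were called. Atp5mg (-0.325), Ndufa12 (-0.29) and Ndufv2 (-0.24) had the largest moderated t downward, with a smallest adjusted p of 0.894, and Cox8a (0.14), Ndufc2 (0.06) and Ndufaf3 (0.06) upward. The member median was -0.064.

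In cortex after 6 weeks the count was 0, and 0.106% of all rows were called. Uqcrc2 (0.23, adjusted p = 0.198), Ndufs5 (0.39, adjusted p = 0.199) and Atp5mg (0.26, adjusted p = 0.412) had the largest moderated t upward, and Cox8c (-0.13), Sdhc (-0.13) and Atp5mk (-0.12) downward. The member median was 0.045, and it was 0.0 without the 3 arrays apart. Without cortex control 6 weeks replicate 1 there were 2 calls.

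**Figure D5:**
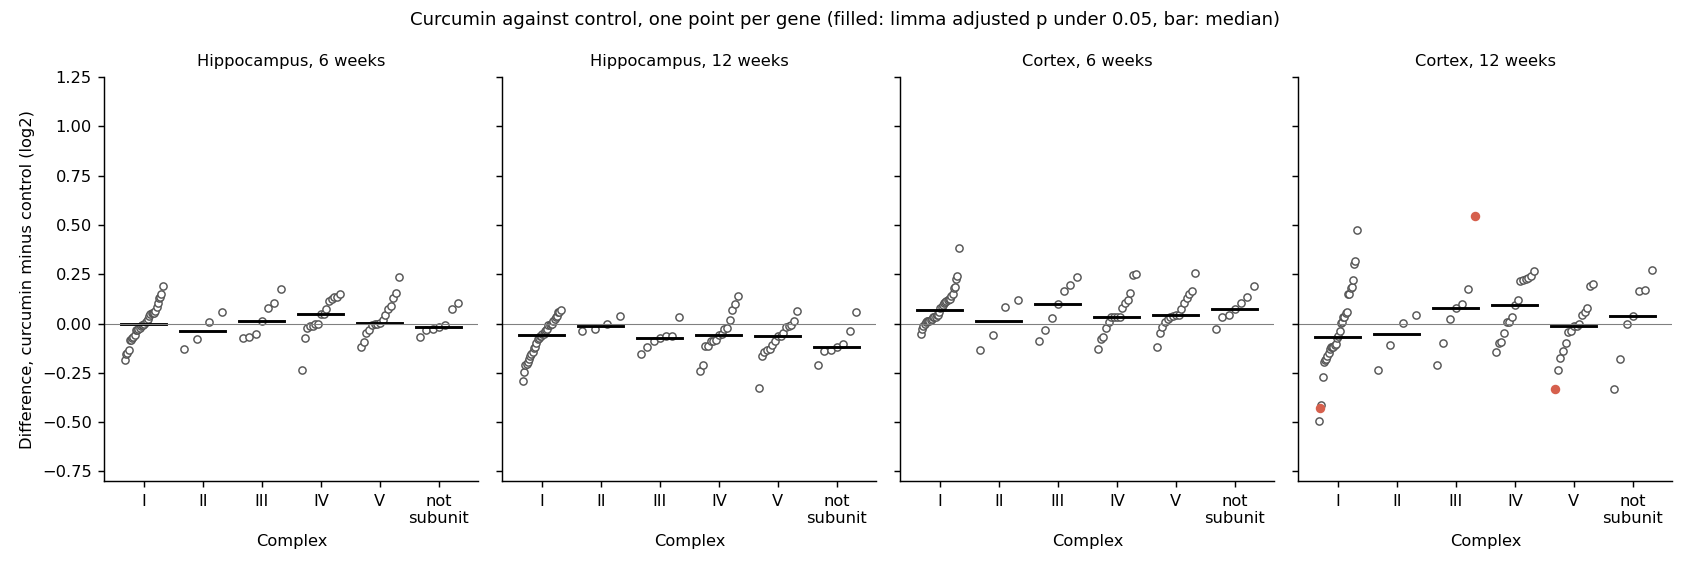
Differences between curcumin and control chow (log2, y axis) of the 80 members by complex (x axis), at 6 and 12 weeks in hippocampus and cortex (filled points have a limma adjusted p under 0.05, bars are medians). The called members are Uqcrfs1 (0.55), Ndufs1 (-0.43) and Atp5f1a (-0.33) in cortex after 12 weeks.

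The differences between these effects were tested as interactions. In cortex the curcumin effect at 12 weeks exceeded that at 6 weeks for 1 member, Uqcrfs1, by 0.58 (SE 0.112, limma adjusted p = 0.0356), against 1.47% of all rows called. Members were called no more often than all rows in this contrast. Its curcumin and control arrays in cortex at 6 weeks read 7.67 and 7.72, against 7.71 and 7.75. Uqcrc2 (-0.44, adjusted p = 0.0505), Ndufs1 (-0.44, adjusted p = 0.0532) and Ndufb6 (-0.74, adjusted p = 0.0737) had the largest moderated t downward, and Cox6c (0.21) and Atp5if1 (0.20) followed Uqcrfs1 upward. At 12 weeks the curcumin effect in cortex exceeded that in hippocampus for the same gene, by 0.67 (SE 0.112, adjusted p = 0.0494), against 0.19% of all rows called. In hippocampus Uqcrfs1 read 7.84 and 7.88 on curcumin chow at 12 weeks, against 7.87 and 8.09 on control chow. Atp5if1 (0.38, adjusted p = 0.141), Ndufa1 (0.63, adjusted p = 0.163), Ndufs1 (-0.35, adjusted p = 0.183), Ndufa9 (-0.37) and Sdha (-0.21) were not called. With the replicate number as a block the call for cortex against hippocampus was lost, and with the pool as a random block, which ties hippocampus and cortex of the same diet, duration and number, it was kept. Both interactions use the same 4 cortical arrays at 12 weeks, and neither was called without the 3 arrays apart. Of the fits that left out 1 of the 16 arrays, Uqcrfs1 was called for 12 against 6 weeks in those without cortex control 6 weeks replicate 1, cortex curcumin 12 weeks replicate 1 or any of the 4 hippocampal arrays of 12 weeks. For cortex against hippocampus it was called only in the fit without hippocampus control 12 weeks replicate 1.

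The other interactions gave no call. For hippocampus at 12 against 6 weeks limma called 0 members and 0% of all rows. The different counts of duration calls on curcumin and control chow in hippocampus were therefore not matched by a called difference between the diets. In this hippocampal test the largest moderated t downward were those of Atp5pd (-0.30), Atp5mg (-0.46) and Ndufa5 (-0.31), and upward those of Ndufab1 (0.21), Sdhd (0.17) and Cox8c (0.12). For cortex against hippocampus at 6 weeks limma called 0 members and 0% of all rows. By moderated t, Ndufs5 (0.42), Ndufa10 (0.33) and Uqcrc1 (0.23) led upward and Uqcrb (-0.15), Cox6b2 (-0.21) and Atp5pd (-0.12) downward.

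Hippocampus and cortex differed little in these genes. With diet and duration weighted equally, 3 members were called higher in hippocampus than in cortex and 1 lower, against 9.67% of all rows called, and the member median was 0.035. Ndufa5, an accessory subunit of the complex I arm that projects into the matrix, read 9.44 to 9.77 on the 8 hippocampal arrays (median 9.58), against 9.07 to 9.53 on the 8 cortical arrays (median 9.26). The difference was 0.325 (SE 0.042, 1.253-fold, limma adjusted p = 0.000546), and the tissues overlapped through 1 cortical array, control 12 weeks replicate 1, at 9.53. Ndufb11 differed by 0.19 (adjusted p = 0.0311), Ndufaf4 by 0.14 (adjusted p = 0.0487) and Atp5if1 by -0.12 (adjusted p = 0.0436), and each of them overlapped between the tissues. The difference of Atp5if1 lay on curcumin chow, where it read 10.154 to 10.428 in hippocampus and 10.48 to 10.618 in cortex. On control chow Atp5if1 read 10.298 to 10.429 in hippocampus and 10.273 to 10.491 in cortex. Cox6a2 at -0.20 (adjusted p = 0.117) and Ndufc2 at -0.08 (adjusted p = 0.167) were the next lower ones and were not called. Of the 4 calls Ndufa5 was the one that held without each of the 16 arrays and without the 3 arrays apart together, and the count without single arrays was 1 to 6. With the replicate number as a block 2 calls were left, Ndufa5 and Ndufb11, and with the pool as a random block all 4 were.

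Genes that work with the respiratory chain gave mixed counts between 12 and 6 weeks over both tissues and diets. Of 26 assembly factors named outside the rule, 9 were called higher, among them Cox20 (0.308), Sdhaf1 (0.299) and Surf1 (0.255), and 2 lower, Sdhaf3 (-0.253) and Cox18 (-0.142). Of 15 genes of the TCA cycle and pyruvate dehydrogenase, 6 were called higher, led by the citrate synthase gene Cs (0.306), and 3 lower, Suclg1 (-0.338), Idh2 (-0.284) and Dld (-0.188). Of 18 genes of electron carriers and exchange, 1 was called higher, Coq4 (0.159), and 4 lower, the ADP/ATP carrier Slc25a4 (-0.309), the ubiquinone synthesis genes Coq3 (-0.279) and Coq7 (-0.222), and the phosphate carrier Slc25a3 (-0.141). Of 14 regulators of mitochondrial biogenesis, 0 were called higher and 6 lower, Ppargc1a (-0.304), Yy1 (-0.172), Pprc1 (-0.171), Polg (-0.165), Nrf1 (-0.144) and Gabpa (-0.121). Of 72 cytosolic ribosomal protein genes, 25 were called higher and 18 lower, and of 33 proteasome genes 5 higher and 8 lower. These contrasts share the arrays of the member contrast, and 10.9% of all rows were called higher and 8.97% lower.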

How the data were processed

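RNA from tissue pooled from 3 rats was hybridised to 16 Affymetrix arrays, 2 for each group. The labels and the pooling describe separate pools, and the design text also speaks of duplicate arrays of each RNA sample. On hippocampus control 6 weeks the choroid plexus median was 0.034 on replicate 1 and 2.163 on replicate 2. Whether any 2 arrays hold the same RNA was not tested. The authors normalised the scans with RMA (Command Console, Expression Console and Gene Spring, versions not given in the sources used here) and deposited log2 values for 27342 transcript clusters, with no missing value. The paper names an exon array and the annotation is of a gene array, which was not settled. Array data hold no read depth, so the number of arrays limits the precision. Gene names came from the platform annotation, with 15097 rows naming 1 gene, 323 several and 11922 none.

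All 27342 rows were fitted in limma 3.58.1 (R 4.3.3) with 1 mean per group over the 8 groups of 2 arrays, and contrasts were tested with moderated t, with 8 residual and 3.12 prior degrees of freedom and Benjamini-Hochberg adjustment over all rows. No row was filtered. The fit was also run on simulated arrays with independent noise in each row, which cannot speak to genes that vary together. The genes named are, for each contrast, the called members up to the 15 with the largest absolute moderated t in each direction, or the 3 largest where fewer than 3 were called. The complex II subunits, sets of tissue isoforms, and the 5 members each of highest and lowest SD over the arrays were always named. Members and lists were chosen with earlier results of these data known. The contrasts of 12 against 6 weeks on curcumin chow and over both tissues and diets, and the fit without 3 arrays, were added after seeing the data. Figures were drawn with matplotlib 3.10.9 (Python 3.11.15).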

Additional observations from a re-analysis of the deposited data

Results flagged for a closer look

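Uqcrfs1, the Rieske protein of complex III, stood out because its response to curcumin chow differed between groups, by limma's test of the difference itself. In cortex its difference between curcumin and control chow was larger at 12 than at 6 weeks by 0.58 on the log2 scale (adjusted p = 0.0356). At 12 weeks it was larger in cortex than in hippocampus by 0.67 (adjusted p = 0.0494). The first difference was not called in a fit of the cortical arrays only. With the replicate number as a block the second difference was no longer called. Both calls also depended on which arrays were kept, as given above. Both values use the 2 cortical curcumin arrays of 12 weeks, which read 8.307 and 8.498, so they are not independent of each other. No cause was tested.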

How the results depend on the processing

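Counts are of called members, higher and lower together. Counts over all rows under the same settings are not given in this section. Whether a member count rose or fell only with the count over all rows was not tested. For curcumin against control in cortex at 12 weeks, 3 became 6 with quantile normalization, 0 with the cortical arrays only, 0 with the 4 arrays compared only, 6 with a variance trend and robust estimation, 7 with array weights, 10 at an adjusted p under 0.10 and 0 by fold alone (over 1.5 up, under 0.66 down). For hippocampus against cortex, 4 became 2 without the dimmest 30 percent of rows, 1 without the 3 arrays apart, 2 with structural subunits only, 7 at an adjusted p under 0.10 and 0 by fold alone. For 12 against 6 weeks on control chow in hippocampus, 19 became 3 without the 3 arrays, 0 with the 4 arrays only and 5 by fold. For the same in cortex, 25 became 0 without the 3 arrays, 5 with the cortical arrays only, 0 with the 4 arrays only and 9 by fold. On curcumin chow in hippocampus, 11 became 0 without the 3 arrays, 0 with the 4 arrays only, 18 at an adjusted p under 0.10 and 4 by fold. On curcumin chow in cortex, 12 became 19 with quantile normalization, 5 without the 3 arrays, 1 with the cortical arrays only, 0 with the 4 arrays only, 5 with array weights and 4 by fold. Over both tissues and diets, 44 became 5 by fold. For the curcumin effect at 12 against 6 weeks in cortex, 1 became 2 with quantile normalization, 0 without the 3 arrays, 0 with the cortical arrays only, 3 with trend and robust estimation and 5 at an adjusted p under 0.10. For the curcumin effect in cortex against hippocampus at 12 weeks, 1 became 0 without the dimmest rows, 0 without the 3 arrays, 0 with trend and robust estimation and 0 with array weights. The cause of these shifts was not tested, except that fits of fewer arrays have fewer degrees of freedom.

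Leaving out 1 array at a time gave 1 to 20 calls for 12 against 6 weeks on control chow in hippocampus, 4 to 26 in cortex, 0 to 12 on curcumin chow in hippocampus, 2 to 14 in cortex and 40 to 49 over both tissues and diets. It gave 0 to 6 for curcumin against control in cortex at 12 weeks, 0 to 2 at 6 weeks, 0 to 0 in hippocampus at 6 and 12 weeks, 1 to 6 for hippocampus against cortex, 0 to 3 for the curcumin effect at 12 against 6 weeks in cortex and 0 to 1 for that in cortex against hippocampus at 12 weeks.

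With the replicate number as a block, hippocampus against cortex gave 2 calls and the curcumin effect in cortex against hippocampus at 12 weeks gave 0. The duration counts were then 9 and 10 on curcumin chow in hippocampus and cortex, 17 and 24 on control chow, and 45 over both tissues and diets. Over all pairs of groups, same-numbered arrays deviated from their group means with correlations of -0.429 to 0.494. For hippocampus and cortex of the same diet and duration, whose pools may share rats, they were 0.148 and 0.162 on curcumin and control chow at 12 weeks, and -0.154 and 0.124 at 6 weeks. Whether equal numbers mark the same rats is not given in the sources used here and was not settled by these values. With the pool as a random block (consensus correlation 0.039) every count was the same as without it.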

Other observations

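Over the 16 arrays, the genes outside the rule whose centred values followed the mean of the structural subunits most closely were Sdr39u1 (Pearson r = 0.963), Tmem147 (0.953), Lynx1 (0.953), Cs (0.948), Mrpl4 (0.943), Cltb (0.943), Btbd6 (0.938), Tollip (0.938), Pop7 (0.936) and Selenow (0.935), out of 14244 genes searched. Cs encodes citrate synthase, the first enzyme of the TCA cycle, and Mrpl4 a protein of the mitochondrial ribosome. The arrays share 8 groups, so the values describe likeness only.

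Between hippocampus and cortex, 6 of 15 genes of the TCA cycle and pyruvate dehydrogenase were called higher in hippocampus and 0 lower, and 3 of 18 genes of electron carriers and exchange were called higher and 1 lower, by limma's adjusted p, against 9.67% of all rows called in either direction.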
